A study of Mus musculus with 16 samples.

Results

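The genes described here are Trp53, which encodes the transcription factor p53, and 9 of its stress targets, Cdkn1a, Mdm2, Ccng1, Bax, Bbc3, Trp53inp1, Phlda3, Gdf15 and Sesn2. They were found by the gene name given to each spot of the arrays, and all 10 had a probe and passed the filter on dim spots, among 19360 genes tested. Where a gene had more than 1 probe, the probe with the highest mean red signal was used. Dams of the strain C57BL/6BomTac breathed an aerosol of the titanium dioxide UV-Titan, whose nano-sized particles are surface-coated, or filtered clean air, and gene expression was measured in the livers of their offspring. The aerosol held about 42 mg/m3 and whole-body exposure lasted 1 hour per day from gestation day 8 to 18. The groups were female UV-Titan (n = 5), female control (n = 3), male UV-Titan (n = 4) and male control (n = 4), each animal on its own 2-colour array, with no genetic change or other treatment named for any of them. Offspring were killed at postnatal day 2 or at weaning on day 23 or 24. The age of each liver is not in its labels. It is also not stated which animals shared a litter, so the p-values and intervals measure the spread between these samples. The offspring met the particles only through the mother, and the labels give no measure of the dose that reached the fetal liver.

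In an undamaged cell p53 is made and destroyed continuously, because Mdm2, an E3 ubiquitin ligase, marks it for degradation. DNA breaks activate the kinases ATM and ATR, p53 is then stabilised, and it binds a pair of decamer half-sites in the DNA near its target genes. Its targets halt the cell cycle (Cdkn1a, which encodes the kinase inhibitor p21), start apoptosis (Bax and Bbc3), limit growth signalling (Phlda3, Sesn2) and, through Mdm2 and Ccng1, restrain p53 itself. p53 is controlled largely at the protein level, so in many tissues the messenger RNA of its targets is the usual readout of its activity, and Cdkn1a and Mdm2 are among the targets most often used for this.

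The p53 decamer half-site was searched for in RefSeq promoter windows of 300 bases (250 before and 50 after the transcription start, build GRCm38.p6), on both strands. It is a palindromic consensus with purines on the left, pyrimidines on the right and a fixed C and G around an A or T pair. The table held 13 windows for 9 of the 10 genes and Trp53inp1 was not among them. A match was found in 5 of the 13 windows (38.5%), 1 each for Trp53, Cdkn1a, Mdm2, Ccng1 and Bax, against 2745 of all 32851 windows (8.36%). These genes were chosen as p53 targets, so this share is a description of the list and of the letters in the windows. The matches are printed here in capitals with up to 25 bases on either side, on the strand of the gene. They fit the consensus by their letters, and binding of p53 at these places was not tested.
Cdkn1a, chr17:29090881-29090962, plus strand: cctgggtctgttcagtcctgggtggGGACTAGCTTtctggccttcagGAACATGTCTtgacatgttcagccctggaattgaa
Mdm2, chr10:117710910-117710969, minus strand: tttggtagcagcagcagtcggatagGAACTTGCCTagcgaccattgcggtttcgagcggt
Ccng1, chr11:40755437-40755496, minus strand: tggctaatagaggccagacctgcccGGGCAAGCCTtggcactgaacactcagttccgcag
Bax, chr7:45467065-45467124, minus strand: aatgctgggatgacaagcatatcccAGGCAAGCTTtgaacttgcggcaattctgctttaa
Trp53, chr11:69580259-69580318, plus strand: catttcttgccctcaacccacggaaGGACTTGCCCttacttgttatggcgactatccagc
Cdkn1a was the 1 gene of the list with 2 matches in a window, 12 bases apart, which is within the spacer of up to 13 bases that a full site allows. Only 24 of the 32851 windows held such a pair. Cdkn1a had 2 windows, for 2 transcription starts, and the other (chr17:29093519-29093818) held 0 matches. Within the matching window, the first matching base lay 73 bases before the transcription start in Cdkn1a. It lay 186 before it in Mdm2, 185 in Ccng1, 201 in Bax and 75 in Trp53. No decamer match was found in the windows of Bbc3, Phlda3, Gdf15 and Sesn2, which says only that these letters are not in those 300 bases.

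The arrays read each gene through probes of 60 bases, placed by the array design on build mm7. Of these, 3 that have no stop codon in at least 1 reading frame are shown: the Trp53 and Mdm2 probes because probes of these genes disagreed, and the Bax probe as an example of a probe that spans a gap in the gene.
Trp53, brighter probe, chr11:69671206-69671265, plus strand: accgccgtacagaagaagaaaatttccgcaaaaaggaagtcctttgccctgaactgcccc
Mdm2, dimmer probe, chr10:117204040-117204099, minus strand: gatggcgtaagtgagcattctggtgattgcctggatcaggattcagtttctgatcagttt
Bax, the probe used, chr7:41641827-41641982, minus strand: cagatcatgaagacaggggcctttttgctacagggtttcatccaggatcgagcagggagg
The Bax probe covers 156 bases of the genome with its 60 bases. The second Trp53 probe lies 9175 bases before the one shown.

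Every array carried liver RNA in the red channel and a universal mouse reference RNA, a pool made from mouse cell lines, in the green channel. The level of a gene in liver against the reference therefore also holds any difference between the dyes, and it depends on the processing. A log2 ratio of liver over reference was computed for each gene after background correction and loess normalization within the array, and groups were compared with limma, with p-values adjusted by Benjamini-Hochberg over the 19360 genes and called at 0.05. The share of spots marked as well above background was 57.7% to 67.1% in red and 62.7% to 69.8% in green. The probes of all 10 genes were well above background in both channels on all 16 arrays, and no spot on any array was saturated. Correlations of all genes between arrays of a group lay between 0.969 and 0.991. Xist and Ddx3y matched the sex label on all 16 arrays. In 3 livers transcripts of another organ stood out: the median log2 ratio of 13 exocrine pancreas genes was 3.67 and 2.30 in male control replicates 31 and 33, and that of 9 skeletal muscle genes was 1.68 in male UV-Titan replicate 5. In female UV-Titan livers the 12 megakaryocyte genes and the 15 hepatocyte genes tested were all above the level in female control livers, with median differences of 0.54 and 0.55 on the log2 scale (0.48 and 0.062 with the red channel alone), and none of these genes passed the adjusted threshold. All 14 granulocyte genes (median 0.50), 7 of 9 erythroid genes (0.26), 9 of 10 endothelial genes (0.24) and 11 of 12 macrophage genes (0.23) were also above control in females. With the red channel alone these 4 medians were 0.38, -0.021, 0.15 and -0.0016. Of all genes, 58.5% were above control in females by the ratio. The part of these shifts in the results on the 10 genes was not tested.

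None of the 10 genes passed the threshold in livers of exposed offspring of either sex. The count was 0 of 10 in females, in males and over both sexes (limma), and the background was 0% in each comparison (percent called among all 19360 genes). At an unadjusted p under 0.05, 0 of the 10 genes passed in females, 1 (Trp53inp1, lower) in males and 0 over both sexes. Of all genes, 6.69% passed this in females, 4.94% in males (1.82% as lower) and 7.04% over both sexes. The median log2 change of the 10 genes was 0.029 in females, -0.015 in males and 0.024 over both sexes, and that of all genes was 0.021, 0.016 and 0.019. These medians depend on the scaling: with the spread of the ratios also scaled between arrays, the 10 genes had medians of 0.29 in females, -0.033 in males and 0.12 over both sexes, against 0.012, 0.017 and 0.014 for all genes, and 0 of the 10 passed. With the red channel alone, quantile normalized between arrays, no gene of the list passed either, and the medians were 0.037, -0.058 and 0.0093. The green channel, which holds the same reference RNA on every array, also gave 0 of 10.

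**Figure D1:**
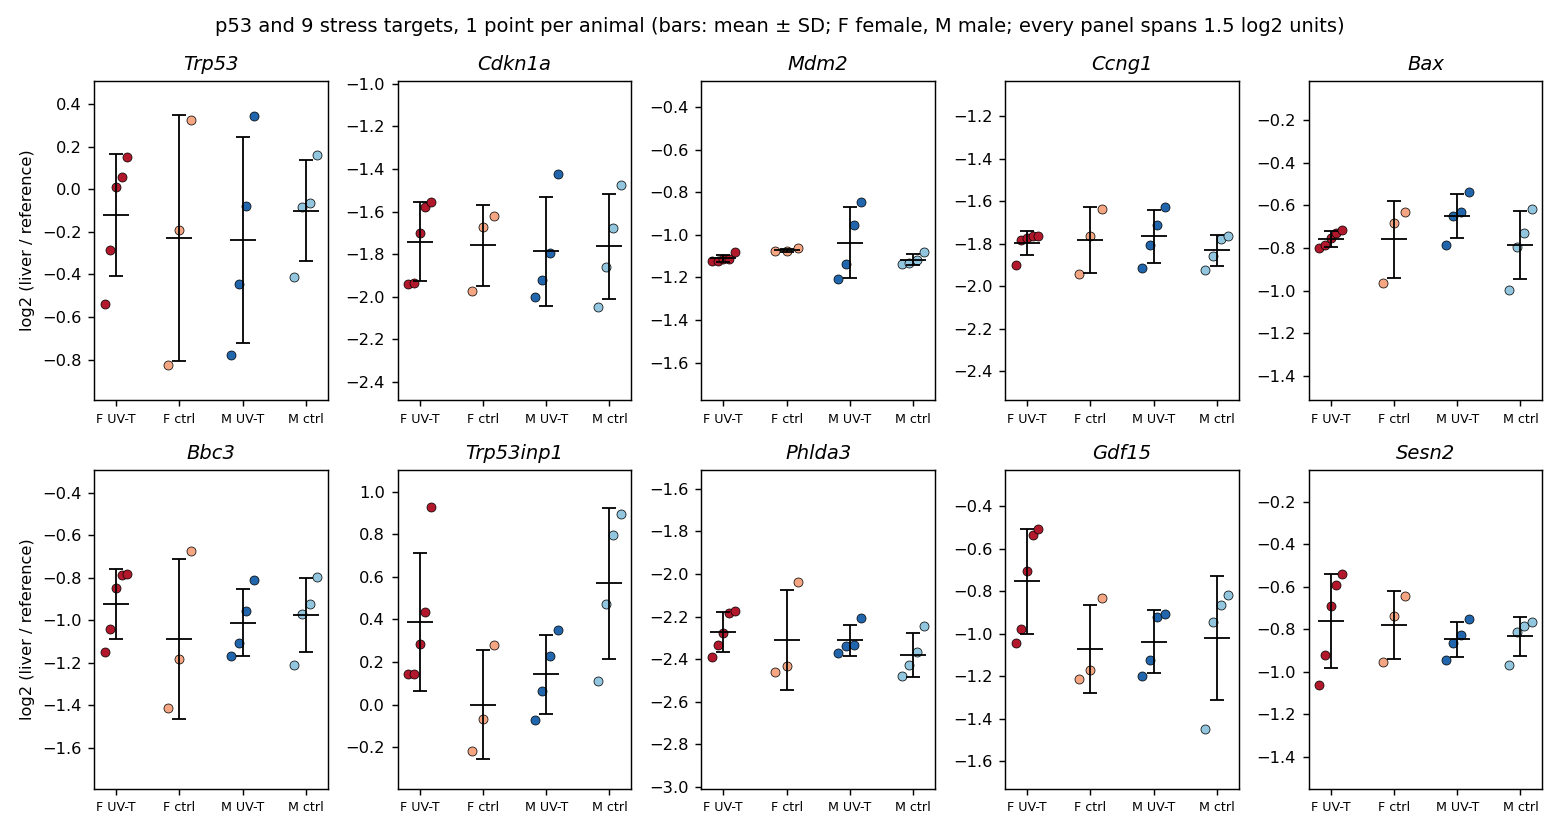
Log2 ratio of liver over reference RNA (vertical axis) for each gene in the 16 animals, by group, with the mean and SD as bars. The groups overlap in all panels except Mdm2 in females, where the 5 UV-Titan livers lie just below the 3 control livers, and Trp53inp1 shows opposite differences in the 2 sexes.

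Trp53 itself varied widely between animals within each group, and no difference by exposure passed the test. Its log2 ratio was 0.013, -0.54, 0.059, -0.29 and 0.15 in female UV-Titan livers, against -0.83, 0.33 and -0.19 in female control livers. Male UV-Titan livers had 0.34, -0.077, -0.44 and -0.78, against -0.066, -0.083, -0.41 and 0.16 in male control livers. High and low animals occurred in each of the 4 groups, and the groups overlapped in both sexes. The change over both sexes was -0.014 ± 0.175 (SE) on the log2 scale, with a 95% interval of -0.38 to 0.36 and an adjusted p of 0.994 (limma).

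The spread of Trp53 belonged to 1 of its probes. The brighter probe had an SD within groups (of the deviations from the group means) of 0.39, which placed it at percentile 98.6 of all genes. The SD of its 10 repeated spots within an array had a median of 0.034. The green channel of this probe, with the same reference RNA on every array, ranged from 8.44 to 9.43 on the log2 scale, a range close to that of the liver channel (8.63 to 9.77). The dimmer Trp53 probe ranged only from -0.083 to 0.27 in log2 ratio, with an SD within groups of 0.10. Over the 16 arrays the 2 probes had a Pearson r of -0.0076, and their deviations from the group means had an r of -0.058. By the dimmer probe the difference between UV-Titan and control livers was 0.13 ± 0.078 (SE) in females and 0.012 ± 0.076 in males, with adjusted p of 0.822 and 0.997 (limma). The brighter probe had an r above 0.8 with 302 other genes, against a median of 33 over 19332 genes, and the highest were Lims1 (0.98), Ckap4 (0.96), Plagl2 (0.96) and Atp6v1a (0.95). The dimmer Sesn2 probe also swung between arrays, and its deviations had an r of 0.84 with those of the brighter Trp53 probe. These comparisons of probes were picked after their values were seen, they share the same 16 arrays, and the cause was not tested.

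Cdkn1a, the cell cycle arrest gene of the list, did not differ detectably by exposure. Female UV-Titan livers had log2 ratios of -1.94, -1.93, -1.70, -1.55 and -1.58, against -1.67, -1.98 and -1.62 in female control livers. Male UV-Titan livers had -2.003, -1.80, -1.92 and -1.43, against -1.68, -1.86, -2.05 and -1.47 in male control livers. All 4 groups covered nearly the same range, and Cdkn1a was on average 3.39-fold lower in liver than in the reference RNA. The difference was 0.016 ± 0.146 (SE) in females, -0.023 ± 0.142 in males and -0.0037 ± 0.102 over both sexes. The last had a 95% interval of -0.22 to 0.21, so changes beyond 1.16-fold in either direction lay outside it. Its 10 spots per array had a median SD of 0.035, and the SD within groups over the arrays was 0.22. The green channel, with the same reference RNA on every array, had an SD within groups of 0.15, against 0.17 in red. Green lay at 10.88 to 10.98 on slide 1 and at 10.60 to 10.64 on slide 5. The log2 ratios there were -2.05 to -1.80 and -1.67 to -1.43. The spread of 0.22 therefore holds differences between arrays as well as between animals, and the part of the slides was not tested.

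Mdm2 and Ccng1 restrain p53, Mdm2 as its ubiquitin ligase and Ccng1 as a cyclin that acts through the phosphatase PP2A on Mdm2. Mdm2 had the smallest spread of the 10 genes, with an SD within groups of 0.084. Its log2 ratio was -1.12, -1.11, -1.12, -1.08 and -1.11 in female UV-Titan livers, against -1.08, -1.06 and -1.08 in female control livers. These groups did not overlap, though the closest animals had nearly the same value, and the difference was -0.038 ± 0.070 (SE), with an adjusted p of 0.962 (limma). Mdm2 was the 1 gene of 10 whose groups did not overlap in females with UV-Titan lower. Among all genes this held for 1.05%. No gene of the list was without overlap with UV-Titan higher in females (3.17% of all genes), nor in males in either direction (1.92% higher and 1.1% lower). In males Mdm2 had -1.13, -0.95, -1.21 and -0.85 in UV-Titan livers, against -1.12, -1.13, -1.08 and -1.14 in control livers, and the UV-Titan livers lay on both sides of the controls. The dimmer Mdm2 probe gave a difference of -0.018 ± 0.063 in females, and its deviations had an r of -0.30 with those of the brighter one. Ccng1 had log2 ratios from -1.94 to -1.63 over the 16 arrays, and its difference was -0.014 ± 0.078 in females and 0.067 ± 0.076 in males.

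Bax and Bbc3 encode the proteins that open the mitochondrial outer membrane in apoptosis and the BH3-only protein PUMA that sets this in motion. Bax averaged -0.76 ± 0.037 in female UV-Titan livers and -0.76 ± 0.18 in female control livers (SD, n = 5 and 3). In males it averaged -0.65 ± 0.10 in UV-Titan livers and -0.79 ± 0.16 in control livers (SD, n = 4 each). The male difference of 0.14 ± 0.086 (SE) had an adjusted p of 0.957 (limma), and it was -0.014 when the 3 livers with transcripts of other organs were left out. Bbc3 averaged -0.92 ± 0.16 in female UV-Titan livers and -1.09 ± 0.38 in female control livers, a difference of 0.17 ± 0.14 (SE). Without female control replicate 35 the Bbc3 difference in females was 0.37, and without female control replicate 40 it was 0.0052. In males the Bbc3 difference was -0.035 ± 0.138.

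Trp53inp1, a stress-induced nuclear protein that promotes p53-dependent arrest and death, had the largest differences of the list, and they ran in opposite directions in the 2 sexes. By the probes used, it was also the 1 gene of the 10 with a higher mean level in liver than in the reference, by 1.23-fold. In the authors' deposited ratios it lay lower, from -0.35 in female control replicate 25 to 0.75 in female UV-Titan replicate 16. The dimmer Trp53 probe also had a mean log2 ratio above 0 (0.10, with 13 of 16 arrays above 0). Female UV-Titan livers had log2 ratios of 0.14, 0.29, 0.14, 0.93 and 0.44, against -0.22, -0.066 and 0.28 in female control livers. Male UV-Titan livers had 0.35, 0.23, -0.073 and 0.064, against 0.80, 0.47, 0.11 and 0.90 in male control livers. The groups overlapped in both sexes, and the high values were those of female UV-Titan replicate 16 and male control replicates 43 and 31. The difference was 0.39 ± 0.19 (SE) in females (adjusted p = 0.764) and -0.43 ± 0.18 in males (95% interval -0.82 to -0.037, adjusted p = 0.952, limma). The female effect minus the male effect was 0.82 ± 0.26, with an unadjusted p of 0.0070 and an adjusted p of 0.980 (limma), and 4.26% of all genes passed an unadjusted p under 0.05 for this term, with 0% past the adjusted threshold.

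For Trp53inp1 both probes gave the same picture. They lie 2994 bases apart, had a Pearson r of 0.94 over the 16 arrays, and the dimmer one gave 0.39 ± 0.22 (SE) in females and -0.42 ± 0.22 in males. With red alone the differences were 0.36 and -0.37. Within slides, the female difference was 0.21, -0.14 and 1.15 on the 3 slides that held both female groups, and the male difference was 0.12, -0.87 and -0.54 on the 3 that held both male groups, so neither sex had 1 direction on every slide. Without female UV-Titan replicate 16 the female difference was 0.25. Without the 3 livers with transcripts of other organs, of which 2 are male controls, the male difference was -0.29, with a 95% interval of -0.82 to 0.24, and the female minus male term was 0.68. All 13 exocrine pancreas genes tested were below control in male UV-Titan livers, 11 of them at an unadjusted p under 0.05 and 0 past the adjusted threshold. Their median log2 ratio per animal was 0.18 to 0.52 in male UV-Titan livers, against 0.11 to 3.67 in male control livers. Male control replicate 43, the highest male in Trp53inp1, had the lowest of these values. The part of such transcripts in the Trp53inp1 difference beyond these values was not tested.

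Phlda3, a repressor of Akt signalling, was on average 4.98-fold lower in liver than in the reference. It ranged from -2.48 to -2.04 over the 16 livers, and the difference was 0.039 ± 0.092 (SE) in females and 0.068 ± 0.089 in males. Gdf15, a secreted stress hormone of the TGF-beta family, had log2 ratios of -0.98, -0.51, -0.70, -0.54 and -1.04 in female UV-Titan livers, against -1.21, -1.17 and -0.83 in female control livers. The groups overlapped, and the difference in females was 0.32 ± 0.15 (SE), with an unadjusted p of 0.053 and an adjusted p of 0.752 (limma). On the 3 slides that held both female groups it was 0.20, 0.13 and 0.67, with UV-Titan higher on each. Of the 20 sets of 1 gene in 1 sex, 4 had 1 direction on all 3 slides and 16 were mixed. Besides Gdf15 in females, the 4 were Mdm2 in females (lower), Phlda3 in males (higher) and Sesn2 in males (lower). With only 3 slides a set often has 1 direction by chance. The share among all genes was not computed, so these sets are no sign of an effect by themselves. In males Gdf15 had -1.20, -0.90, -0.92 and -1.13 in UV-Titan livers, against -0.87, -0.82, -0.95 and -1.45 in control livers, and the difference was -0.017 ± 0.148. The female minus male difference of Gdf15 was 0.34 ± 0.21, with an adjusted p of 0.980. Sesn2, a sestrin that limits mTORC1 signalling, differed by 0.018 ± 0.108 in females and -0.013 ± 0.104 in males, and ranged from -1.06 to -0.54.

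**Figure D2:**
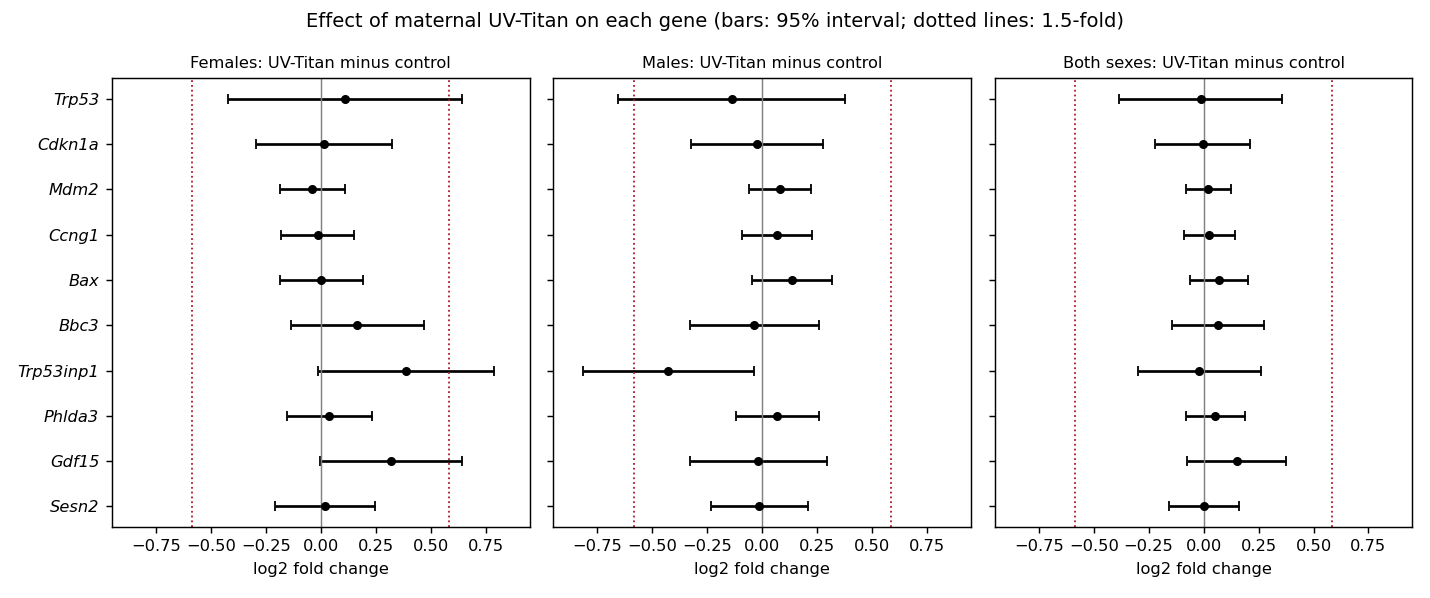
Log2 fold change of UV-Titan over control (horizontal axis) with its 95% interval for each gene in females, in males and over both sexes, with dotted lines at 1.5-fold. Over both sexes all 10 intervals lie inside the lines, and Trp53inp1 and Trp53 reach beyond them in single sexes, as does Gdf15 in females.

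The intervals give, gene by gene, the size of change that the data leave out at the 95% level. They treat each animal as independent, although the dams were exposed and litter mates are not known. If animals shared a litter, the intervals may be too narrow. They are also not adjusted for the number of genes. Over both sexes all 10 intervals lay within 1.5-fold in either direction, and the farthest end was 1.09-fold for Mdm2, the narrowest, and 1.31-fold for Trp53, the widest, with a median of 1.16-fold. The largest rise that an interval still held was 1.30-fold, for Gdf15. In females 7 of 10 intervals lay within 1.5-fold and all 10 within 2-fold, with the farthest end at 1.73-fold for Trp53inp1. In males the counts were 8 and 10, with the farthest end at 1.76-fold, again for Trp53inp1. Among all genes, 93.7% of intervals in females, 95.7% in males and 98.8% over both sexes lay within 1.5-fold. These limits depend on the scaling: with arrays centred on the median in place of loess, the farthest end was 1.66-fold over both sexes, 2.79-fold in females and 2.46-fold in males. With the spread scaled between arrays it was 1.52-fold over both sexes, 1.97-fold in females and 1.74-fold in males. Under median centring the median of all genes was 0.27 in females, -0.089 in males and 0.075 over both sexes (log2). Relative to these medians the median of the 10 genes was 0.14, -0.085 and 0.047. Scaling between arrays left the median of all genes near 0, and relative to it the median of the 10 genes was 0.28 in females, -0.051 in males and 0.11 over both sexes.

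No difference between male and female livers passed the test in these genes. Over both exposures the male minus female difference ranged from -0.12 (Gdf15) to 0.16 (Trp53inp1), and 0 of 10 passed the threshold (lowest unadjusted p 0.235, lowest adjusted p 0.981, limma), against a background of 0.0465%, which is 9 genes led by Xist, Eif2s3y and Ddx3y. All 10 intervals lay within 1.5-fold. With arrays centred on the median in place of loess, 6 of 10 did, and the farthest end was 1.82-fold.

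The 5 genes with a second probe showed how far a single probe carries the measurement. The r of the deviations from the group means between the 2 probes was 0.91 for Trp53inp1, 0.49 for Ccng1, 0.33 for Sesn2, -0.058 for Trp53 and -0.30 for Mdm2. Mdm2 and Ccng1 had probes that each varied little, with SDs within groups between 0.069 and 0.10. Those of the Trp53inp1 probes were 0.29 and 0.35.

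**Figure D3:**
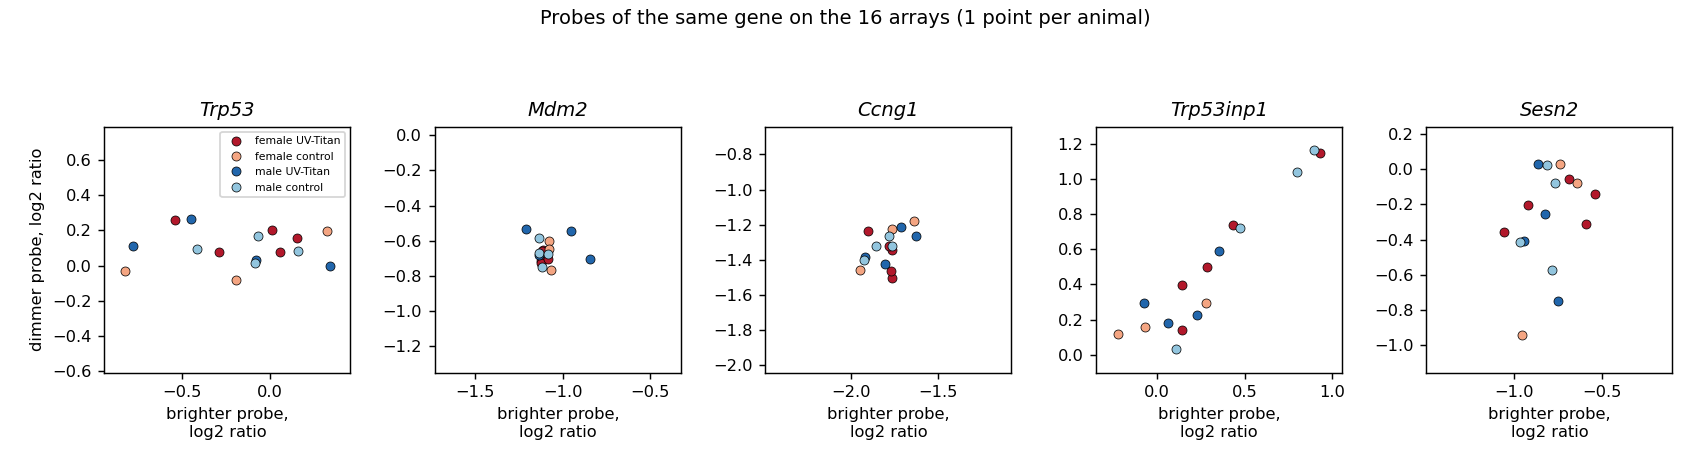
Log2 ratio by the brighter probe (horizontal axis) against that by the dimmer probe (vertical axis) for the 5 genes with 2 probes, 1 point per animal, coloured by group, on axes of equal scale. The Trp53inp1 points lie along a line, whereas the Trp53 points spread along the brighter probe and the Sesn2 points along the dimmer probe.

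No pair of the 10 genes varied together from array to array past the threshold. Over all 45 pairs, the correlation of deviations from the group means had a median r of 0.022. After adjustment over the 45, 0 pairs passed the threshold (permutation within groups, two-sided). Slides were not taken into account, so these correlations mix differences between slides with those between animals. The part of the slides was not tested. Mdm2 and Ccng1 had the highest, with r = 0.66, rho = 0.72, a permutation p of 0.0038 and an adjusted p of 0.096 over the 16 animals. That value dropped to r = 0.38 without the 2 animals farthest from the median in Mdm2. Trp53 and Cdkn1a, the factor and its best known target, had no pair past the threshold with any other gene of the list. These correlations used the brighter probes, whose deviations had an r of -0.058 with the second probe for Trp53 and -0.30 for Mdm2. Pairs with Trp53 or Mdm2, and the genes most like Mdm2, therefore rest on a probe that the second did not follow. They cannot decide whether the genes vary together. The genes whose deviations were most like those of Cdkn1a were AK038363 (r = 0.88), 5830415L20Rik (0.87), AK045486 (0.86) and Rhbdf2 (0.86). For Mdm2 they were AU051595 (0.89), Tcrg (0.86), Zfp654 (0.85) and Krit1 (0.85), in each case over 16 arrays and 19331 other genes, and none of the 8 is among the pathway genes listed here.

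The wider p53 network gave the same count. Of 17 other targets in arrest and repair, 0 passed the threshold in any comparison, and 1 each in females, in males and over both sexes had an unadjusted p under 0.05, against 6.69%, 4.94% and 7.04% of all genes. Over both sexes 9 were above and 8 below control, with a median of 0.0037 against 0.019 for all genes. Btg2, an antiproliferative gene, was 0.15 ± 0.059 (SE) higher on the log2 scale over both sexes, with an adjusted p of 0.605. Zmat3, a p53-induced RNA-binding protein, had -0.092 ± 0.056, and Fbxw7, a ubiquitin ligase subunit, had 0.068 ± 0.045. Of 13 other targets in cell death, 0 passed, 1 had an unadjusted p under 0.05 over both sexes (7.04% of all genes), and the median there was -0.0075. Perp, a membrane protein, had -0.15 ± 0.068 with an adjusted p of 0.702, the death receptor gene Tnfrsf10b had -0.18 ± 0.10, and Pidd1 had 0.075 ± 0.061.

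Among 14 regulators of p53 and damage kinases, 0 passed, 2 had an unadjusted p under 0.05 in males (4.94% of all genes) and 0 over both sexes (7.04% of all genes), where the median was 0.027. Hipk2, a kinase that acts on p53, had 0.098 ± 0.049 (SE, adjusted p = 0.730, limma). Mdm4, the partner of Mdm2, had 0.11 ± 0.072, and Atm, the kinase of the break response, had -0.12 ± 0.085. Of 10 genes of the integrated stress response, which shares Sesn2 and Gdf15 as targets with p53, 0 passed in any comparison, and an unadjusted p under 0.05 was reached by 1 in females (6.69% of all genes) and 2 in males (4.94%). Over both sexes Psat1 had -0.18 ± 0.084 (adjusted p = 0.712), Asns had -0.072 ± 0.059 and Vldlr had -0.17 ± 0.16. Trib3 and Atf5 of this list and Plk3 of the arrest list, named after their values were seen, had positive female minus male differences like Trp53inp1. These were 0.94 ± 0.39, 0.56 ± 0.15 and 0.75 ± 0.33, each with an adjusted p of 0.980 (limma). Other genes of the same lists lay the other way, among them Chac1 (-0.46), Plk2 (-0.26) and Atf4 (-0.13). In this term 5 of the 10 stress response genes and 4 of the 17 arrest and repair genes were above 0, against 52.5% of all genes. An unadjusted p under 0.05 was reached by 2 of the 10 and 2 of the 17, against 4.26% of all genes.

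The 12 cell cycle genes that p53 lowers through p21 and the DREAM complex, such as cyclins and mitotic kinases, had 11 of 12 values below control in females and 11 of 12 above control in males, and 0 passed either an adjusted or an unadjusted p under 0.05. Their median was -0.080 in females and 0.044 in males, against 0.021 and 0.016 for all genes. Under centring on the median these signs turned, with 12 of 12 above control in females. Relative to the median of all genes the female median was then 0.023. That was the 1 setting of 29 with a female median of this list above 0. The male median was above 0 in 26 of 29. The settings share the same animals and are not separate evidence. By the fit across all genes Cdk1 had -0.13 ± 0.11 (SE), Cdc20 had -0.076 ± 0.080 and Mki67 had 0.12 ± 0.13 over both sexes. Since whole livers were measured, fewer cells of a type and less RNA per cell cannot be told apart.

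**Figure D4:**
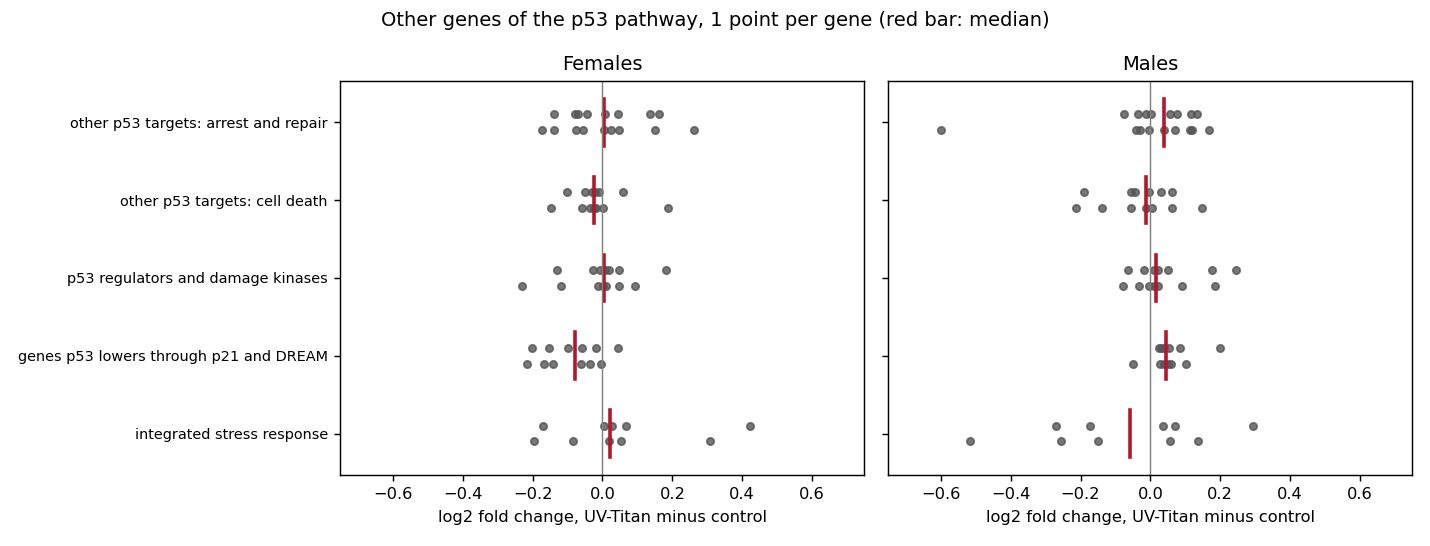
Log2 fold change of UV-Titan over control (horizontal axis) for each tested gene of 5 lists of other p53 pathway genes, in females and in males, with the median of each list as a red bar. The medians lie between -0.080 and 0.044 and no gene passed the adjusted threshold.

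The title of the study names hepatic DNA damage, and its design describes a comet assay, which measures DNA strand breaks in single cells, in lung lavage fluid of the dams. Values of that assay were not analysed here, so the expression of the p53 targets stands without a matched measure of breaks in the same livers.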

How the data were processed

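Liver RNA of 16 offspring was hybridised against a reference RNA on 2-colour arrays, 1 array per animal, on 5 slides scanned on 4 days. The deposited files hold spot intensity values as scanned by the authors with Agilent Feature Extraction 9.5.3.1, per the labels, and the same files' processed signals are background-subtracted and dye-normalized intensity values. The deposited value table holds log2 ratios per the authors' own processing, used as an alternative; it correlated with the ratios computed here at r = 0.983 to 0.993 per array, with column medians of -0.045 to -0.038. The label fields give liver as Cy3 and the labelling protocol gives it as Cy5; hepatocyte genes and the sex-linked Xist and Ddx3y lie in the red (Cy5) signal on all 16 arrays, so red was taken as liver.

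Background was corrected by normexp (offset 50), ratios were loess-normalized array by array (control spots had weight 0), spots marked as outliers were left out and spots of a probe averaged. Single channels were quantile normalized. A gene was tested if its probe was well above background on at least 3 arrays, with gene names updated by RefSeq accession for 12355 genes and 7006 keeping the name in the file. limma 3.58.1 (R 4.3.3) fitted 4 group means on all arrays, with two-sided tests, 95% intervals and Benjamini-Hochberg adjustment over 19360 genes; the fit was tested on simulated data. Correlations of pairs used 100000 permutations within groups. The number of arrays limits the precision.

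The members and lists were chosen with earlier results of these data known. All 10 members are named; of each other list the 3 genes with the smallest unadjusted p over both sexes are named, for Cdkn1a and Mdm2 the 4 genes most like them, and Xist and Ddx3y as a check of the labels. The genes most like Trp53, and Trib3, Atf5, Plk3, Chac1, Plk2 and Atf4, fall outside this rule and were chosen after their values were seen, as were the comparisons of probes. Rrm2b, Eda2r and Trp63 did not pass the filter and Atr was not found by name. Settings were varied in 29 ways, including leaving out each array, slide and scan day as blocks, other background and scaling, and the other probe of a gene, the last chosen after seeing the data.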

Additional observations from a re-analysis of the deposited data

Results flagged for a closer look

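Of 30 groups of 4 or 5 animals tested for a single animal far from the others, 2 held one. Chance marks about 1 group in 20. Mdm2 in female UV-Titan replicate 16 had a log2 ratio of -1.081, against -1.111 for the nearest of the other 4 animals of the group. Ccng1 in female UV-Titan replicate 8 had a log2 ratio of -1.90, against -1.78 for the nearest animal. The groups are tight in both genes, with SDs of 0.017 for Mdm2 and 0.059 for Ccng1.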

How the results depend on the processing

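No paired analysis was possible because the groups share no replicate numbers in the labels; slide and scan day were used as blocks instead. In the 28 settings that tested all 10 genes, and in the one that used the other probe of 5 genes, 0 passed the threshold in any of the 5 comparisons. Of 1425 values under other settings, 185 had the opposite sign, 89 of 625 where the processing changed and 96 of 800 where 1 array was left out, and the lowest adjusted p was 0.337 in females, 0.572 in males and 0.485 over both sexes. All 10 intervals over both sexes lay within 1.5-fold in 26 of the 28 settings with all 10 genes, the exceptions being median centring (1.66-fold) and scaling between arrays (1.52-fold). The positive female minus male difference of Trp53inp1 ranged from 0.63 to 1.34, and its interval left out 0 in 28 of the 29 settings, the exception being the one without the 3 livers with transcripts of other organs. Among all genes, where 0 passed, the count in females was 1 with slide as a block, 1 with scan day as a block, 6 with array weights, and 0 to 1 without 1 array. In males it was 1 with the scanner's processed signals. Over both sexes it was 1 without background correction, 1 with slide as a block, 10 with scan day as a block, 6 with array weights, and 0 to 11 without 1 array (11 without male control replicate 43 and 3 without female control replicate 35). Between males and females, 9 genes passed and 3 did under the stricter filter, which tested 16205 genes. The cause was not tested elsewhere.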
